A study of Mus musculus with 12 samples.

Results

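Rhox5, a reproductive homeobox gene on chromosome X, was examined beside 7 genes that write, copy or remove DNA methylation: Dnmt1, Dnmt3a, Dnmt3b, Uhrf1, Tet1, Tet2 and Tet3. The 8 genes were chosen by name from the 54446 genes of the count table, and Rhox5 was chosen from its higher level in the deletion line in these same samples. All 8 were among the 14724 genes with enough counts to be tested. The table held RNA-seq read counts per gene from NIH3T3 cells, a mouse embryonic fibroblast line. The 4 groups of 3 samples were wild-type cells in normoxia, wild-type cells in hypoxia (below 0.2% oxygen for 16 h), and a line with the dNVEGF deletion (ΔN-VEGF) in normoxia and in the same hypoxia. N-VEGF is an amino-terminal fragment made when VEGF is translated from an upstream start, and the deletion removed its coding sequence from Vegfa. Both lines shared the NIH3T3 background and carried no other named allele. The deletion line was made with Cas9, guide pairs, selectable donor cassettes and single-cell cloning. The methods also describe a retroviral VCre vector to remove the cassettes, followed by cell sorting. The wild-type cells were the parent, so the deletion cannot be told apart from cloning, selection, viral transduction and sorting. The study's methods state repeats for experiments in general, but nothing in the sources used here names the 3 RNA-seq samples of a group as separate cultures, so p-values measure only the spread between these samples. In GRCm38 coordinates Dnmt1 lies at chr9:20907209-20959888 (minus strand), Dnmt3a at chr12:3806007-3914443 (plus), Dnmt3b at chr2:153649450-153687730 (plus) and Uhrf1 at chr17:56303321-56323486 (plus). Tet1 lies at chr10:62804570-62908996, Tet2 at chr3:133463679-133545139 and Tet3 at chr6:83362373-83459084, all on the minus strand, and reads were counted over the exons of each gene.

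DNA methylation at CpG sites is copied after replication by DNMT1, which UHRF1 guides to newly replicated, hemimethylated DNA. DNMT3A and DNMT3B place new methyl groups. The TET enzymes oxidise 5-methylcytosine, a step that needs oxygen, iron and 2-oxoglutarate and opens the way to its removal. Rhox5, also called Pem, has a promoter used in Sertoli cells and another used in placenta and many cell lines, and methylation of the latter is a textbook mark of its silence in somatic cells. RNA counts alone were measured here, so nothing below is a measure of methylation, protein or enzyme activity.

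Total counts ran from 30519052 to 43056690 per sample. The fibroblast markers Col1a1, Col1a2, Col3a1, Pdgfra, Pdgfrb, Vim, Thy1, Fn1, Dcn and Lum summed to between 17271.7 and 43845.3 CPM (reads of a gene scaled to a common library size, with TMM factors), with only Lum under 1 CPM in all samples. The epithelial, endothelial and leukocyte markers summed to at most 8.8, 25.1 and 59 CPM, and the pluripotency markers to at most 0.153 CPM. Some of these sums moved with hypoxia. The fibroblast sum was 17271.7 to 26358.0 CPM in normoxia and 27314.6 to 29542.8 CPM in hypoxia for the wild type, and 20662.4 to 21866.3 against 41709.7 to 43845.3 CPM for the deletion line. Of the 9 fibroblast markers tested, however, edgeR called 1 higher and 4 lower in wild-type hypoxia, with a median log2 fold change of -0.49. In ΔN-VEGF hypoxia 5 were higher and 2 lower, with a median of 0.69. Over all genes 36.5% and 53.3% were called in these comparisons. The sum of the 4 leukocyte markers was 4.82 to 13 CPM in wild-type and 6.64 to 9.33 CPM in ΔN-VEGF normoxia, against 35.5 to 35.8 and 54.5 to 59 CPM in hypoxia, with Ptprc and Cd3e under 1 CPM in all samples. The 4 endothelial markers went from 1.81 to 4.23 up to 5.91 to 8.05 CPM in wild-type and from 1.96 to 4.19 up to 20.3 to 25.1 CPM in ΔN-VEGF cells, with Pecam1, Tek and Kdr under 1 CPM throughout. The 5 epithelial markers went from 0.697 to 2.44 up to 8.18 to 8.8 CPM in wild-type cells, with Epcam, Krt8 and Krt18 under 1 CPM throughout. The part of other cells in the hypoxia results was not tested. The Sertoli list reached 239.9 CPM, but its defining genes Amh, Dhh and Fshr were under 1 CPM in all 12 samples. All 9 hypoxia genes measured (Vegfa, Slc2a1, Pgk1, Ldha, Bnip3, Egln3, Ankrd37, Pdk1 and Ndrg1) were called higher after hypoxia in both lines, against 18.2% of all genes for the wild type and 26.9% for the deletion line (adjusted p below 0.05, edgeR). Vegfa was at 69.4 ± 26 CPM (SD, n = 3) in wild-type normoxia, 280.2 ± 9.72 in wild-type hypoxia, 35.7 ± 1.54 in ΔN-VEGF normoxia and 428.8 ± 9.35 in ΔN-VEGF hypoxia, and a count over the whole gene cannot show whether the N-VEGF coding part was deleted.

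One library stood apart. Wild-type normoxia replicate 2 correlated at 0.956 and 0.957 (log2 CPM, across genes) with replicates 1 and 3, which correlated at 0.996 with each other. ΔN-VEGF normoxia replicate 2 correlated at 0.986 with each of its own group. The summed level of 20 S phase and proliferation genes was 1299.5, 5078.1 and 1287.6 CPM in the wild-type normoxia replicates 1 to 3, and 3029.7, 4413.8 and 3105.8 CPM in the ΔN-VEGF normoxia replicates. In hypoxia the sum lay between 1351.5 and 1372.9 CPM in wild-type cells and between 740.8 and 778.2 CPM in ΔN-VEGF cells. The number 2 samples of normoxia thus held the highest sums of their groups, and values without them are given beside the enzymes. In that fit each normoxia group holds replicates 1 and 3 only. The samples left out were picked from these same data. Its adjusted p-values therefore cover only the spread of the samples kept and cannot be set on a par with those from all samples.

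The 5′ sequence of Rhox5 is shown first because the gene's silence in somatic cells is tied to CpG methylation there. The gene counted lies at chrX:37804842-37808876 on the plus strand (GRCm38), while the RefSeq start in the promoter table (GRCm38.p6) lies 50234 bases before it, so the window below belongs to an upstream start that may not be the one used in these cells. Its 250 bases before the RefSeq start are printed 5′ to 3′ with each CG in capitals.
Rhox5 upstream chrX:37754358-37754607 (+): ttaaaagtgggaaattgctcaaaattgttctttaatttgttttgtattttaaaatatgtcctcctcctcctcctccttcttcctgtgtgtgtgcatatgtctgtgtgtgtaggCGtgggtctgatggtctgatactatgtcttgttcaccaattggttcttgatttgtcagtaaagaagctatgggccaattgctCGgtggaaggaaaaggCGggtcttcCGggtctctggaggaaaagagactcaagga
These 250 bases held 4 CG pairs. With the 50 bases after the start the window held 5, against a median of 7 over 32851 promoter windows of the same length (quartiles 3 and 20), and 38% of all windows held fewer. The 12 windows of the enzymes held 2 to 57 CG pairs, the lowest at a Dnmt1 window and the highest at Tet2, a range that includes the 5 of Rhox5.

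E2F factors are known to act at promoters of replication genes, so the stretches of Dnmt1 and Uhrf1 that hold E2F-like letters are shown. The letters TTTCCCGC, TTTCGCGC, TTTGCCGC and TTTGGCGC, forms of the site bound by E2F factors at S phase genes, were searched on both strands of the 13 windows of the 8 genes. They occurred in 1 of the 3 Dnmt1 windows and 1 of the 2 Uhrf1 windows, against 2.26% of all windows, and in none of the others. The matching letters are in capitals, on the strand of the gene.
Dnmt1 chr9:20952824-20952853 (-): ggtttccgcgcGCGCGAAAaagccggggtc
Dnmt1 chr9:20952574-20952603 (-): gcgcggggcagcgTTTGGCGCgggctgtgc
Uhrf1 chr17:56304117-56304146 (+): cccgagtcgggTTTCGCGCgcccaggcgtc
The first Dnmt1 match reads on the opposite strand, and matched letters are a description of these windows only. ACGTG and GCGTG, the core letters of the hypoxia response element, searched in the same way, occurred in 5 of the 13 windows (Dnmt1, Dnmt3a, Uhrf1, Tet2 and Rhox5), against 43.8% of all windows, and shared 0 bases with the E2F matches.

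Rhox5 RNA was 19.7 times as abundant in the deletion line in normoxia and 15.8 times in hypoxia. Its level was 4.11, 4.3 and 4.37 CPM in the wild-type normoxia replicates and 4.02, 3.63 and 3.95 CPM in wild-type hypoxia. It was 84.1, 79.9 and 87.5 CPM in ΔN-VEGF normoxia and 56.8, 63.3 and 63.4 CPM in ΔN-VEGF hypoxia. Every ΔN-VEGF sample was thus above every wild-type sample, with 1813 to 3905 reads against 106 to 227. The difference was 4.30 on the log2 scale in normoxia, 19.7-fold, and 3.98 in hypoxia, 15.8-fold. These are the values that chose the gene, so they are given without a test. Of all genes tested, 4.36% were called between the lines in normoxia and 20.1% in hypoxia (edgeR quasi-likelihood test, Benjamini-Hochberg adjusted p below 0.05). The number 2 samples did not stand apart for Rhox5: wild-type normoxia replicate 2 was 1.01 times the mean of replicates 1 and 3, and the ΔN-VEGF one 0.931 times.

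Hypoxia lowered Rhox5 in the deletion line by less than the line difference itself. The log2 fold change after hypoxia was -0.45 (SE 0.08, adjusted p = 0.00097, edgeR) in ΔN-VEGF cells, from 83.8 ± 3.81 to 61.2 ± 3.78 CPM (SD, n = 3), and all hypoxic samples were below all normoxic ones. In wild-type cells it was -0.14 (SE 0.09, adjusted p = 0.26), from 4.26 ± 0.136 to 3.87 ± 0.209 CPM. With scaling by total counts these values were -0.86 and -0.36 (adjusted p = 2.8e-05 and 0.019), a scaling that moved the median of all genes from -0.01 to -0.41 in ΔN-VEGF and from -0.07 to -0.30 in wild-type cells. The 2 responses differed by -0.32 (SE 0.12, adjusted p = 0.18), where 3.36% of all genes were called. Without wild-type normoxia replicate 2 that difference was -0.34 (adjusted p = 0.038). These oxygen comparisons use the same samples as the line difference that chose Rhox5.

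**Figure D1:**
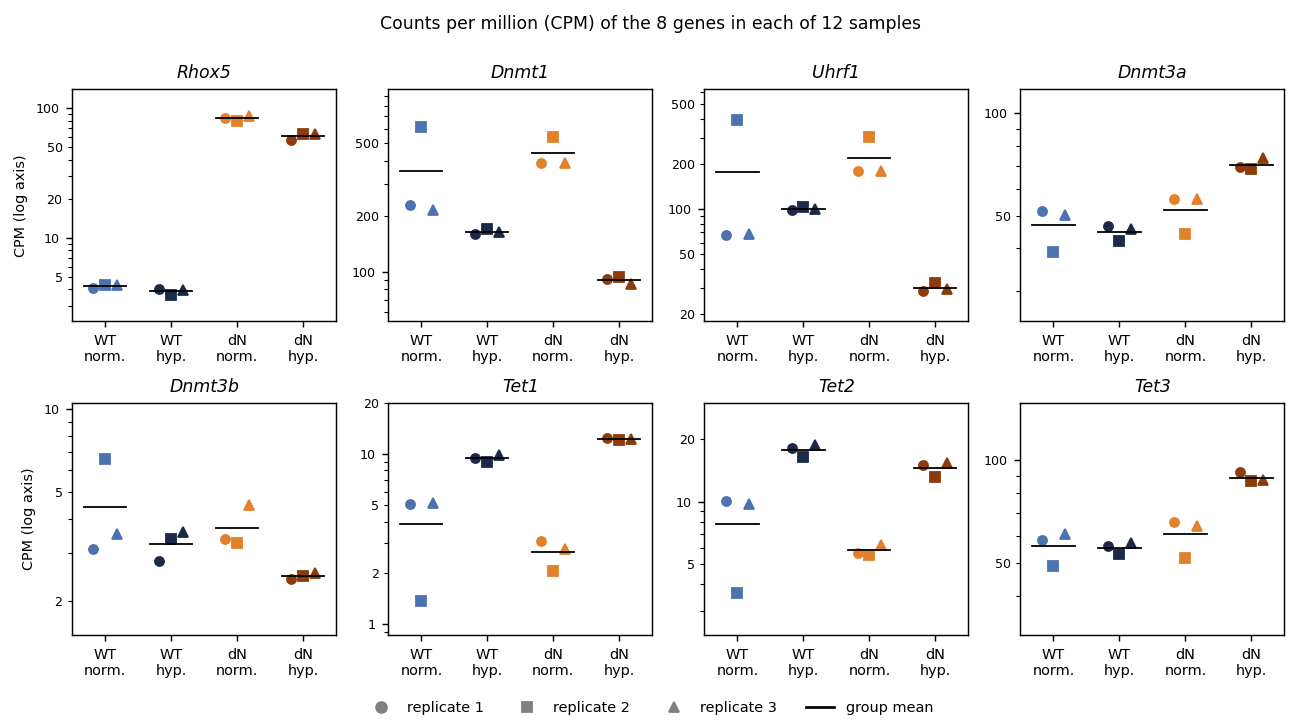
CPM (log axes, a scale of its own in each panel) of the 8 genes in each sample; marker shape gives the replicate number, the line the group mean, and dN stands for ΔN-VEGF. Rhox5 sits at 3.63 to 4.37 CPM in wild-type and 56.8 to 87.5 CPM in ΔN-VEGF samples, while wild-type normoxia replicate 2 is far from its group for Dnmt1, Uhrf1, Tet1 and Tet2.

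On a scale that allows genes to be compared, CPM per kilobase of merged exons, Rhox5 went from 5.65 ± 0.181 (SD, n = 3) in wild-type normoxia to 111.1 ± 5.05 in ΔN-VEGF normoxia. Dnmt1 was at 48 ± 30.8 and 59.7 ± 11.6 on that scale and Uhrf1 at 41.6 ± 44.3 and 51.9 ± 17. Rhox5 was therefore below Dnmt1 in the wild-type group and above it in the ΔN-VEGF group. Dnmt3a was at 2.82 ± 0.417 and Tet3 at 3.35 ± 0.368 in wild-type normoxia, and Dnmt3b, Tet1 and Tet2 were each under 1 in that group (0.862 ± 0.374, 0.251 ± 0.14 and 0.464 ± 0.215). Tet3 was the TET gene with the highest level in all 4 groups, reaching 5.31 ± 0.172 in ΔN-VEGF hypoxia.

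The Rhox genes lie together in a cluster of homeobox genes on chromosome X. Of the other 41 Rhox genes in the table, 32 had no read in any sample, and 1, Rhox2h, had more than 5 reads in a sample. Rhox2h (chrX:37668989-37673277) went the other way. It had 11, 21 and 32 reads in wild-type normoxia, 30, 18 and 30 in wild-type hypoxia, 0, 0 and 3 in ΔN-VEGF normoxia and 0 in each ΔN-VEGF hypoxia sample. The ratio of wild-type to ΔN-VEGF was 19.9 in normoxia (95% exact interval 6.51 to 99, counting error only), and the gene was at least 7.46-fold lower in ΔN-VEGF hypoxia, taking a floor of 3 reads per library. It passed the filter on low counts only through its wild-type samples, so it is given without a test, and near-identical Rhox2 copies make its counts uncertain. Rhox4g, at chrX:37646500-37651327, had 0, 0 and 0 reads in wild-type normoxia, 0, 0 and 1 in wild-type hypoxia, 2, 5 and 2 in ΔN-VEGF normoxia and 1, 1 and 5 in ΔN-VEGF hypoxia, too few to set a fold in normoxia.

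The 20 nearest tested neighbours, 10 on each side of Rhox5, included Rhox2h, which has no test here. Apart from Rhox2h, the nearest lay 612.4 kb before and 380.9 kb after Rhox5, and the farthest 8552.6 kb after it. Of the others Mcts1, a translation factor gene, was called in normoxia, where 4.36% of all genes were. It was higher in ΔN-VEGF by 0.57 (adjusted p = 0.025, or 0.33 with the 6 normoxia samples alone). The median difference of the 20 was 0.07 on the log2 scale, against -0.03 over all genes. In hypoxia, where 20.1% of all genes were called, Rpl39 (0.71) and Lamp2 (0.86) were higher and Upf3b (-0.66) and Stag2 (-0.37) lower. Zbtb33, the nearest tested gene on the far side at 380.9 kb, differed by 0.20 (adjusted p = 0.46) in normoxia and 0.22 (adjusted p = 0.29) in hypoxia. Zbtb33 encodes Kaiso, a reader of methylated CpG.

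**Figure D2:**
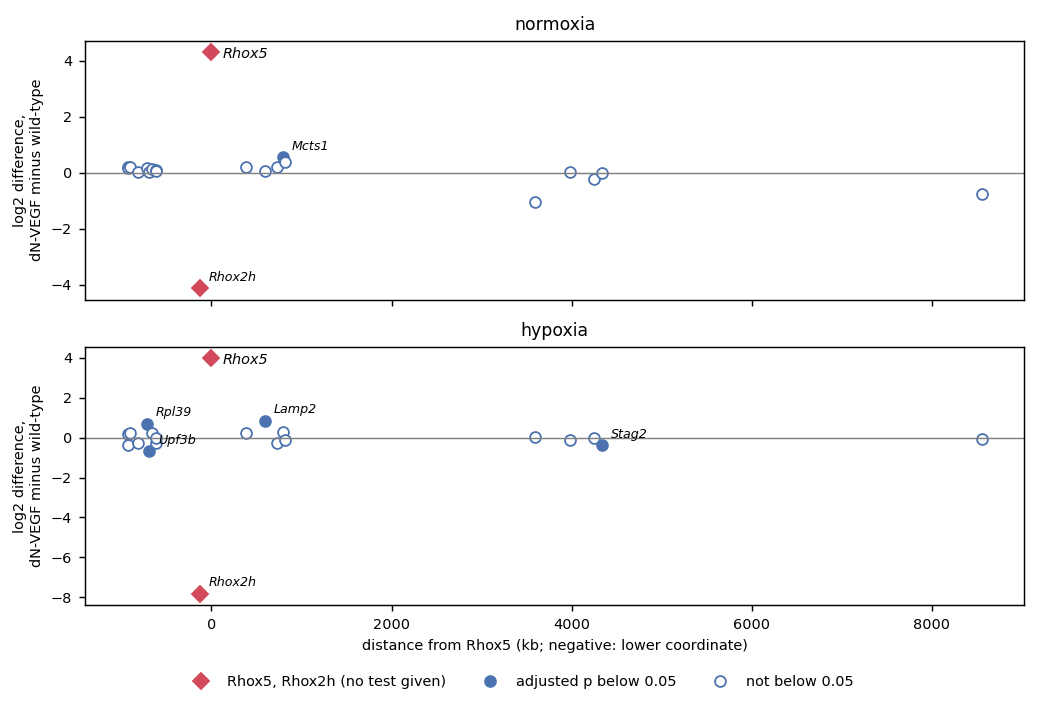
Log2 difference between the lines (ΔN-VEGF minus wild type) for Rhox5 and its 20 nearest tested genes against distance along chromosome X in kb; upper panel normoxia, lower panel hypoxia, filled circles have an adjusted p below 0.05 (edgeR), and diamonds mark Rhox5 and Rhox2h, which are given without a test. Rhox5 stands at 4.30 and 3.98, Rhox2h at -4.11 and -7.83 (a fitted value against libraries at or near 0), and the other neighbours between -1.03 and 0.86.

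The genes whose pattern was most like that of Rhox5 over the 12 samples, by root mean square difference of centred log2 CPM, were Ercc6l2 (0.391), Akr1c12 (0.807), Cd24a (0.844), Gm9866 (0.871) and Clec3b (0.875), where Rhox5's own spread was 2.07. Ercc6l2, which encodes a helicase-like repair protein, had group means of 0.0771, 0.14, 3.2 and 1.89 CPM in wild-type normoxia, wild-type hypoxia, ΔN-VEGF normoxia and ΔN-VEGF hypoxia. Cd24a, a surface glycoprotein gene, had 2.18, 3.15, 18 and 13.8 CPM. No enzyme gene came near Rhox5 by this measure, the nearest being Dnmt3a at 1.89, rank 701. The line pattern that chose Rhox5 fixes much of this order, and Ercc6l2, Gm9866 and Clec3b passed the filter on low counts only through the ΔN-VEGF samples, where they are high.

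Between the lines in normoxia none of the 7 enzyme genes was called by edgeR, against 4.36% of all genes tested. At an unadjusted p below 0.05 the count was 0 by edgeR and 0 by DESeq2, and DESeq2 called 0. DESeq2 gave no p for Uhrf1 in any comparison, so its counts of enzymes here and below leave Uhrf1 out. Dnmt1 was at 230.8, 615.7 and 215.3 CPM in wild-type and 390.5, 539.7 and 392.0 CPM in ΔN-VEGF normoxia, so the groups overlapped through replicate 2 of the wild type. Uhrf1 was at 67.7, 394.7 and 68.6 CPM in wild-type and 178.5, 304.6 and 179.7 CPM in ΔN-VEGF normoxia, again overlapping through that one library. Its log2 difference was 0.32 (SE 0.56, adjusted p = 0.80) with all samples and 1.40 (adjusted p = 1.7e-12) without both number 2 samples, and Dnmt1 went from 0.32 (SE 0.33, adjusted p = 0.65) to 0.82 (adjusted p = 1.4e-09). Without both, the log2 differences of Tet1 and Tet2 were -0.80 and -0.73 (adjusted p = 7e-06 and 9.2e-06), making 4 of 7 called where 53.6% of all genes were. A replicate block on the sample numbers, which pair these normoxia samples in part, left the count at 0.

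Dnmt1, the maintenance methyltransferase gene, fell after hypoxia in both lines. It was at 159.4, 170.0 and 164.9 CPM in wild-type and 90.8, 94 and 85.7 CPM in ΔN-VEGF hypoxia, and every hypoxic sample was below every normoxic sample of its line. The log2 fold change was -1.10 (SE 0.33, adjusted p = 0.023) for the wild type and -2.29 (SE 0.34, adjusted p = 0.00023) for the deletion line. Without both normoxia samples numbered 2 the wild-type value was -0.43 (adjusted p = 1.1e-06) and the ΔN-VEGF value -2.12 (adjusted p = 1.5e-17). In wild-type cells 3 of the 7 enzymes were called (36.5% of all genes), 1 of them lower (18.3% of all genes were called lower) and 2 higher (18.2%). In ΔN-VEGF cells 6 of 7 were called (53.3%), 2 of them lower (26.4%) and 4 higher (26.9%).

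Uhrf1 gave the largest drop of the 8 genes in the deletion line. Its level went from 220.9 ± 72.5 to 28.6, 32.1 and 29.4 CPM there, a log2 fold change of -2.88 (SE 0.60, adjusted p = 0.0020), or -2.58 without both number 2 samples. Wild-type hypoxia samples were at 98.2, 103.5 and 99.7 CPM, below replicate 2 of wild-type normoxia but above replicates 1 and 3. The wild-type log2 fold change was accordingly -0.82 (SE 0.56, adjusted p = 0.28) with all samples and 0.56 (adjusted p = 4.9e-08) without both number 2 samples, so its direction in wild-type cells rested on 1 library.

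The highest levels of Dnmt1 and Uhrf1 lay in the sample with the highest S phase sum, and the lowest in the ΔN-VEGF hypoxia group, which held the 3 lowest sums. Between these the order was not kept for Dnmt1. In wild-type cells it was at 230.8 and 215.3 CPM in normoxia replicates 1 and 3, with sums of 1299.5 and 1287.6 CPM. It was at 159.4 to 170.0 CPM in wild-type hypoxia, with sums of 1351.5 to 1372.9 CPM. Uhrf1 was higher where these sums were higher, at 67.7 and 68.6 CPM in the former samples and 98.2 to 103.5 CPM in the latter. Of the 20 genes of the list (Mcm2 to Mcm7, Pcna, Mki67, Top2a, Ccna2, Ccne1, Ccne2, Cdk1, Tyms, Rrm1, Rrm2, Gins1, Gins2, Cdc6 and Cdt1), 19 fell in ΔN-VEGF hypoxia with a median log2 fold change of -2.43, where 26.4% of all genes fell. In wild-type hypoxia 4 fell, where 18.3% of all genes fell, with a median of -0.96. With both number 2 samples left out, the wild-type list had 10 genes higher and 5 lower, where 65.3% of all genes were called, with a median of 0.29. With the 6 wild-type samples alone 1 was lower, where 23.8% were called. The 5 genes most like Uhrf1 over the 12 samples were Mcm10 (0.0995), Pclaf (0.14), Clspn (0.159), Mcm5 (0.164) and Exo1 (0.166), all of DNA replication or repair, where the own spread of Uhrf1 was 1.21. Mcm5 is itself on the S phase list. The part of cell proliferation in the enzyme differences was not tested, and in bulk RNA fewer cells in S phase and less RNA per cell cannot be told apart.

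**Figure D3:**
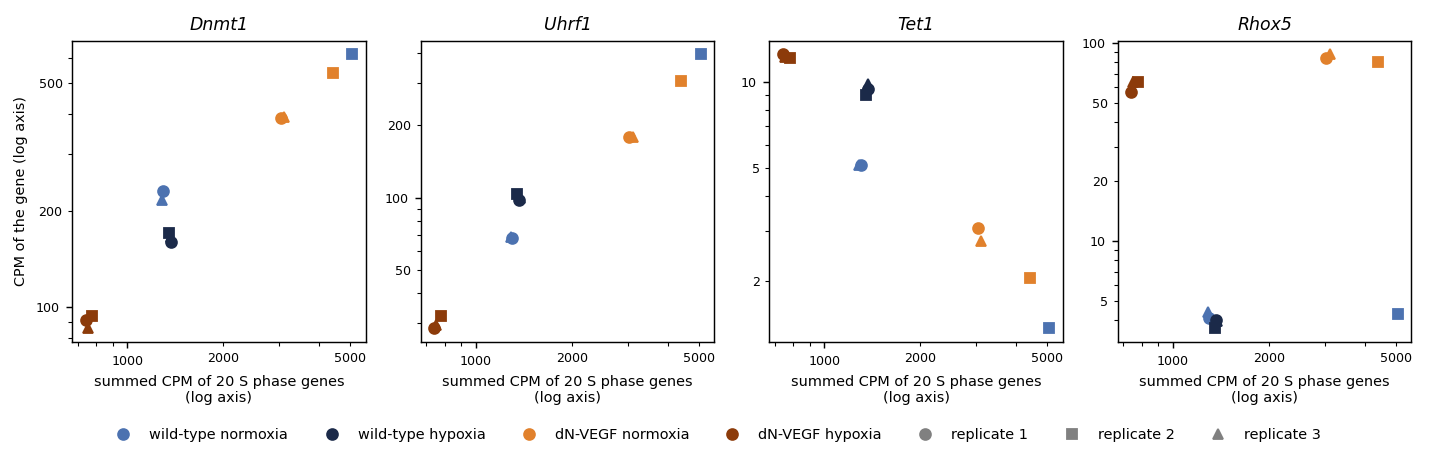
CPM of Dnmt1, Uhrf1, Tet1 and Rhox5 in each sample against the summed CPM of 20 S phase genes (log axes); colour gives the group and shape the replicate number. The ΔN-VEGF hypoxia samples (sums of 740.8 to 778.2 CPM) hold the lowest Dnmt1 and Uhrf1 and the highest Tet1, wild-type normoxia replicate 2 (5078.1 CPM) the reverse, and Rhox5 separates by line at every sum.

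Dnmt3a, a de novo methyltransferase gene, rose in hypoxia in the deletion line. It was at 56.1, 44.2 and 55.9 CPM in ΔN-VEGF normoxia and 69.6, 68.7 and 73.7 CPM in ΔN-VEGF hypoxia, without overlap. The log2 fold change was 0.44 (SE 0.13, adjusted p = 0.013), but with scaling by total counts it was 0.03 (adjusted p = 0.87). In wild-type cells it was -0.07 (SE 0.13, adjusted p = 0.69), from 47 ± 6.95 to 44.8 ± 2.4 CPM, and the groups overlapped. In the fit that left out both number 2 samples the values were 0.33 (adjusted p = 6e-05) in ΔN-VEGF and -0.18 (adjusted p = 0.014) in wild-type cells. Dnmt3b, the other de novo enzyme gene, was low, between 2.41 and 6.59 CPM in all samples, and was called in neither line. Its log2 fold change after hypoxia was -0.44 (SE 0.26, adjusted p = 0.22) for the wild type and -0.58 (SE 0.27, adjusted p = 0.091) for the deletion line. Without both number 2 samples the wild-type value was -0.03 (adjusted p = 0.87) and the ΔN-VEGF value -0.66 (adjusted p = 0.00055). With total counts both were called, at -0.63 and -0.98.

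Tet1 and Tet2 rose in hypoxia in both lines. Tet1 was at 5.11, 1.37 and 5.14 CPM in wild-type normoxia and 9.47, 9.01 and 9.81 CPM in wild-type hypoxia, a log2 fold change of 1.28 (SE 0.37, adjusted p = 0.019). In ΔN-VEGF cells it went from 3.08, 2.06 and 2.77 to 12.5, 12.1 and 12.2 CPM, by 2.21 (SE 0.38, adjusted p = 0.00056). Neither line's groups overlapped. Tet2 was at 10.1, 3.65 and 9.75 CPM in wild-type normoxia and 18.1, 16.3 and 18.6 CPM in wild-type hypoxia, and at 5.68, 5.57 and 6.22 CPM in ΔN-VEGF normoxia and 15, 13.1 and 15.4 CPM in ΔN-VEGF hypoxia. Its log2 fold change was 1.17 (SE 0.29, adjusted p = 0.0085) in the former and 1.31 (SE 0.29, adjusted p = 0.0031) in the latter, and the groups of neither line overlapped. With both number 2 samples left out, the wild-type values were 0.89 for Tet1 and 0.84 for Tet2, still called, and the ΔN-VEGF values 2.06 and 1.28. With total counts the wild-type value of Tet1 was 1.01 (adjusted p = 0.064). With the 6 wild-type samples alone edgeR called 0 of the 7 enzymes, where 23.8% of all genes were called: Dnmt1 was at -1.12 (adjusted p = 0.093), Tet1 at 1.25 (adjusted p = 0.11) and Tet2 at 1.14 (adjusted p = 0.076). These 3 had an unadjusted p below 0.05 in that fit, and DESeq2 over all 12 samples also called 3.

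Tet3, the most abundant TET gene, rose in the deletion line and not detectably in the wild type. It was at 65.8, 51.7 and 64.1 CPM in ΔN-VEGF normoxia and 92, 86.6 and 87.4 CPM in ΔN-VEGF hypoxia, a log2 fold change of 0.55 (SE 0.11, adjusted p = 0.0018) that became 0.14 (adjusted p = 0.43) with total counts. In wild-type cells the change was -0.01 (SE 0.11, adjusted p = 0.94), from 55.9 ± 6.15 to 55.3 ± 2.12 CPM. In the fit that left out both number 2 samples these values were 0.44 (adjusted p = 8.6e-07) and -0.09 (adjusted p = 0.16). Dnmt3a and Tet3 were each other's closest gene of all those tested over the 12 samples, with a root mean square difference of 0.0653 where their own spreads were 0.288 and 0.3. These 2 genes thus had nearly the same pattern, but it was not particular to them. The next nearest gene was at 0.0782 for Dnmt3a and at 0.0707 for Tet3.

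**Figure D4:**
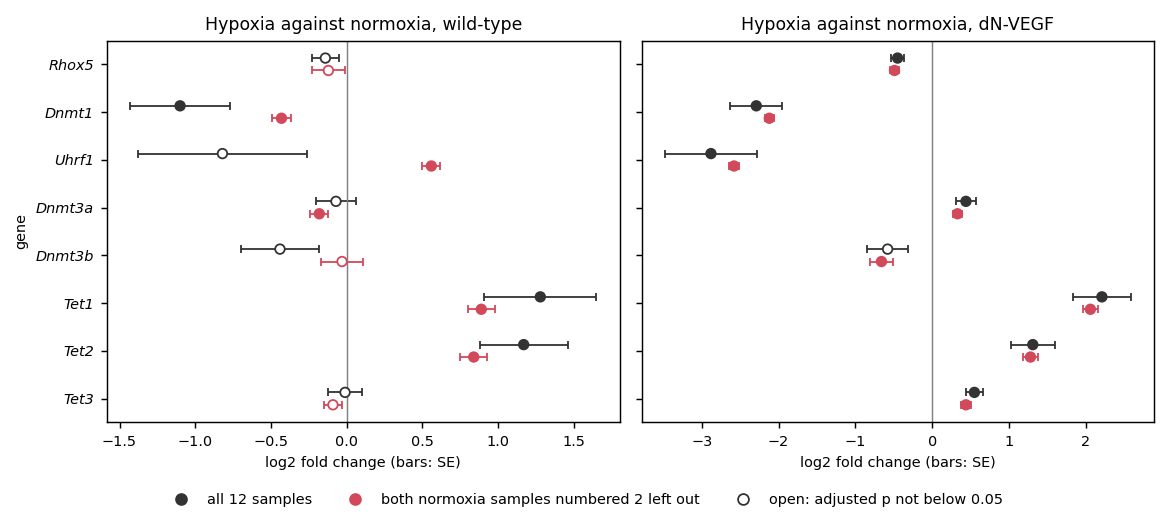
Log2 fold change of the 8 genes after hypoxia in wild-type (left) and ΔN-VEGF cells (right) with SE, for all 12 samples (dark) and without both normoxia samples numbered 2 (red); filled circles have an adjusted p below 0.05 (edgeR). Uhrf1 changes sign in wild-type cells, from -0.82 to 0.56, while in ΔN-VEGF cells each gene keeps its direction.

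Within hypoxia the lines differed for Dnmt3a and Tet3. Dnmt3a was higher in ΔN-VEGF by 0.66 (SE 0.13, adjusted p = 0.0052) and Tet3 by 0.68 (SE 0.11, adjusted p = 0.0023), with all ΔN-VEGF above all wild-type samples, and 20.1% of all genes were called. Without both normoxia samples numbered 2 the differences were again 0.66 and 0.68, and with total counts 0.44 (adjusted p = 0.075) and 0.46 (adjusted p = 0.043). Dnmt1 was lower by -0.87 (SE 0.33, adjusted p = 0.088) and Uhrf1 by -1.74 (SE 0.58, adjusted p = 0.055), again without overlap of the groups. With total counts these 2 were called, at -1.09 (adjusted p = 0.015) and -1.96 (adjusted p = 0.019). With the 6 hypoxia samples alone all 7 enzymes were called, where 57.0% of all genes were: Dnmt3a, Tet1 and Tet3 were higher and Dnmt1, Dnmt3b, Uhrf1 and Tet2 lower. Tet1 differed by 0.38 (SE 0.36) and Tet2 by -0.29 (SE 0.29) over all 12 samples, with adjusted p-values of 0.51 and 0.53.

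No enzyme's response to hypoxia differed between the lines past the threshold by edgeR with all 12 samples and no replicate block. In that fit 3.36% of all genes did, although 4 of the 7 had an unadjusted p below 0.05. With a replicate block over all 12 samples edgeR called Tet3, at 0.57 (adjusted p = 0.045). DESeq2, which gave no p for Uhrf1, also called Tet3, at 0.57 (adjusted p = 0.012). The differences (ΔN-VEGF minus wild-type response) were -1.19 (SE 0.47, adjusted p = 0.18) for Dnmt1, -2.06 (SE 0.80, adjusted p = 0.17) for Uhrf1, 0.51 (SE 0.18, adjusted p = 0.14) for Dnmt3a and 0.56 (SE 0.16, adjusted p = 0.077) for Tet3. Those of Dnmt3b, Tet1 and Tet2 were -0.14, 0.93 and 0.14. Without both number 2 samples all 7 were called, among 52.8% of all genes, with Uhrf1 at -3.15 (adjusted p = 4.8e-16), Dnmt1 at -1.69 (adjusted p = 1.4e-12) and Tet1 at 1.17 (adjusted p = 5.2e-07). In that fit the oxygen comparisons called 5 of 7 enzymes in wild-type cells, where 65.3% of all genes were called, and 7 of 7 in ΔN-VEGF cells, where 71.4% were. The line comparison within hypoxia then called 7 of 7, where 55.8% of all genes were. With such shares called over all genes, nothing particular to the enzymes is read from these counts.

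Of 15 tested cofactors of DNA methylation, 2 rose and 4 fell in wild-type hypoxia and 4 rose and 8 fell in ΔN-VEGF hypoxia, where 36.5% and 53.3% of all genes were called. With both number 2 samples left out, the wild-type counts were 6 and 8, where 65.3% were. The medians with all samples were -0.32 and -0.28, against -0.07 and -0.01 over all genes. Dnmt3l, which encodes a catalytically inactive partner of the de novo enzymes, was at 0.251, 0.906 and 0.328 CPM in wild-type normoxia and 2.26, 2.05 and 2.11 CPM in wild-type hypoxia. The deletion line held 1.27, 2.35 and 1.27 CPM in normoxia and 8.68, 7.75 and 8.31 CPM in hypoxia. It was thus higher in hypoxia in both lines, with log2 fold changes of 2.12 and 2.34 (adjusted p = 0.0019 and 0.00032), and higher in the deletion line under both conditions, by 1.73 in normoxia (adjusted p = 0.039) and 1.94 in hypoxia (adjusted p = 0.0046). With the 6 normoxia samples alone the line difference was not called, at an adjusted p of 0.38 or, with a replicate block, 0.16. No other cofactor was called between the lines in normoxia by edgeR with all samples, where 4.36% of all genes were, but DESeq2 called 2 cofactors higher and 1 lower, and edgeR without both number 2 samples 8 higher and 3 lower, where 53.6% were.

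Hells, a chromatin remodeller needed for methylation of repeats, was at 8.96, 8.2 and 10.5 CPM in ΔN-VEGF hypoxia against 60.3, 102.4 and 63 CPM in ΔN-VEGF normoxia, a fall of -3.03 (adjusted p = 0.00085). In wild-type cells it was at 25.1, 125.5 and 27.9 CPM in normoxia and 40.6, 33.9 and 42.9 CPM in hypoxia. The wild-type hypoxia samples were thus below normoxia replicate 2 but above replicates 1 and 3. Cdca7, which encodes the partner of HELLS, fell in both lines, by -1.18 (adjusted p = 0.014) in the wild type and -2.43 (adjusted p = 0.00013) in the deletion line. Hells and Cdca7 were both lower in ΔN-VEGF than in wild-type hypoxia, by -2.09 and -1.16 (adjusted p = 0.020 and 0.030), where 20.1% of all genes were called. In the fit that left out both number 2 samples the wild-type value of Cdca7 was -0.55, and with the 6 wild-type samples alone its adjusted p was 0.071. Uhrf2, the paralogue of Uhrf1, fell by -1.15 (adjusted p = 0.00071) in wild-type hypoxia.

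Of the 10 readers of methylated DNA, 3 rose in wild-type hypoxia (Mbd1 by 0.26, Mbd6 by 0.35 and Zbtb38 by 0.50), where 36.5% of all genes were called. The counts were 6 higher and 3 lower without both number 2 samples, where 65.3% were called, and 0 with the 6 wild-type samples alone, 2 having an unadjusted p below 0.05. In ΔN-VEGF hypoxia, where 53.3% of all genes were called, 5 rose, with Zbtb4 at 1.76 and Mbd2 at 0.79, and 1 fell, Mbd4 at -0.75, which encodes a glycosylase that removes thymine from mismatches at CpG sites. Between the lines in normoxia edgeR and DESeq2 called 0 readers, with 1 and 2 at an unadjusted p below 0.05, where edgeR called 4.36% of all genes. EdgeR without both number 2 samples called 1 higher and 4 lower, where 53.6% were called. In hypoxia, where 20.1% of all genes were called, 2 were lower in ΔN-VEGF, Mbd4 at -0.51 and Zbtb38 at -0.61. DESeq2 called 3 higher and 2 lower there, and edgeR called 6 higher and 3 lower both with the 6 hypoxia samples alone and without both number 2 samples, where 57.0% and 55.8% of all genes were called. The list's median difference in hypoxia was 0.23 with all samples.

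Of 17 genes of base excision and repair after TET oxidation, Neil2, a DNA glycosylase gene, passed the filter almost wholly through ΔN-VEGF hypoxia and is given without a test, at means of 0.2 CPM in wild-type and 0.842 CPM in ΔN-VEGF hypoxia. Among the other 16, 3 rose and 2 fell in wild-type hypoxia, and 5 rose and 4 fell in ΔN-VEGF hypoxia, where 36.5% and 53.3% of all genes were called. Without both number 2 samples the wild-type counts were 8 and 5, where 65.3% were called, and their median went from 0.02 to 0.25. Gadd45b, which encodes a stress-inducible protein linked to active demethylation, was at 22, 28 and 19 CPM in wild-type normoxia and 129.7, 136.0 and 127.8 CPM in wild-type hypoxia. It rose by 2.51 in the wild type and 2.49 in the deletion line (adjusted p = 2.9e-07 and 1.6e-07), and Gadd45g by 2.09 and 2.25 (adjusted p = 0.00053 and 0.00019). Apex1, the abasic site endonuclease gene, fell by -1.29 in wild-type cells (adjusted p = 0.0061), or by -0.69 without both number 2 samples. Between the lines in normoxia edgeR called 0 of the 16, with 5 at an unadjusted p below 0.05, where 4.36% of all genes were called. DESeq2 called 2, both lower in ΔN-VEGF, and edgeR without both number 2 samples 7 higher and 5 lower, where 53.6% were. Between the lines in hypoxia edgeR called 1 of the 16 higher and 2 lower, where 20.1% of all genes were called. Xrcc1, a repair scaffold gene, was higher in ΔN-VEGF by 0.91 (adjusted p = 0.012), while Neil3 was lower by -1.64 (adjusted p = 0.00097). DESeq2 called 2 higher and 2 lower there. EdgeR called 5 and 4 with the 6 hypoxia samples alone and 5 and 5 without both number 2 samples, where 57.0% and 55.8% of all genes were called.

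Of 14 tested genes that supply the methyl donor or the TET co-substrate, Gnmt passed the filter almost wholly through wild-type normoxia and was left out of the counts. Of the other 13, 1 rose and 7 fell in wild-type hypoxia and 2 rose and 7 fell in ΔN-VEGF hypoxia, with medians of -0.42 and -0.31 against -0.07 and -0.01 over all genes. Over all genes 18.2% rose and 18.3% fell in the wild type, and 26.9% rose and 26.4% fell in ΔN-VEGF cells. Mat2a, the gene of S-adenosylmethionine synthase, fell by -1.17 and -1.64 in the wild-type and ΔN-VEGF lines (adjusted p = 0.015 and 0.0015). Ahcy, whose product clears S-adenosylhomocysteine, fell by -1.02 and -1.54 (adjusted p = 0.0072 and 0.00036). With both number 2 samples left out, their wild-type values were -0.53 and -0.56, and with the 6 wild-type samples alone their adjusted p-values were 0.072 and 0.054. Between the lines, Nnmt, which uses the methyl donor on nicotinamide, was lower in ΔN-VEGF normoxia by -1.89 (adjusted p = 0.010, or 0.27 with the 6 normoxia samples alone), where 4.36% of all genes were called. In hypoxia, where 20.1% were called, Ahcy was lower in ΔN-VEGF by -0.76 (adjusted p = 0.049) and Ahcyl2 higher by 0.54 (adjusted p = 0.0098). Without both number 2 samples edgeR called 3 higher and 3 lower in normoxia and 3 higher and 5 lower in hypoxia. In that fit 53.6% and 55.8% of all genes were called. With the 6 hypoxia samples alone 3 were higher and 4 lower, where 57.0% of all genes were called.

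Other germline genes known to be silenced by promoter methylation in somatic cells were set beside Rhox5. Of 37 listed, 7 passed the filter: Sycp1, Taf7l, Piwil2, Brdt, Dppa2, Dppa4 and Xlr3a. Piwil2, Dppa4 and Xlr3a did so only through the wild-type samples and Taf7l only through the hypoxia samples, so these 4 are given without a test. Of the others, edgeR with all samples called none higher in ΔN-VEGF and Dppa2 lower in both conditions, where 4.36% and 20.1% of all genes were called. Dppa2 was also the one with an unadjusted p below 0.05 by edgeR. DESeq2, counted over 33 listed genes without those 4, called 0 higher and 1 lower in each condition. In the fit that left out both number 2 samples Sycp1, a synaptonemal complex gene, was higher in ΔN-VEGF normoxia by 0.69 (adjusted p = 0.023), where 53.6% of all genes were called, against 0.49 (adjusted p = 0.30) with all samples. In that fit Brdt was lower in ΔN-VEGF hypoxia by -0.47 (adjusted p = 0.0021), where 55.8% of all genes were called, and with the 6 hypoxia samples alone by -0.48 (adjusted p = 0.0051), where 57.0% were, against -0.46 (adjusted p = 0.20) with all samples. Dppa2 and Dppa4 encode paired chromatin proteins of germ and pluripotent cells. Dppa2 had 131, 72 and 151 reads in wild-type normoxia and 16, 17 and 25 in ΔN-VEGF normoxia, and 73, 43 and 65 against 16, 16 and 13 in hypoxia. Its log2 difference was -2.48 in normoxia and -1.83 in hypoxia (adjusted p = 0.0012 and 0.0022). Dppa4 had 88, 25 and 109 reads in wild-type normoxia against 5, 1 and 4 in ΔN-VEGF normoxia, and 15, 5 and 17 against 0, 1 and 0 in hypoxia. Xlr3a had 13, 1 and 17 reads in wild-type normoxia, 20, 9 and 16 in wild-type hypoxia and none in any ΔN-VEGF sample, at least 4.27-fold lower in hypoxia at a floor of 3 reads per library. Xlr3a belongs to a family of near-identical copies, so its counts are uncertain. With the 6 normoxia samples alone Dppa2 was not called (adjusted p = 0.13, or 0.14 with a replicate block).

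After hypoxia Brdt, a testis bromodomain gene, fell by -0.83 and -1.45 for the wild-type and deletion lines (adjusted p = 0.016 and 0.00040), the former at an adjusted p of 0.079 with the 6 wild-type samples alone. Sycp1 was at -0.63 in ΔN-VEGF cells (adjusted p = 0.049, or 0.068 with a replicate block). Taf7l, a testis form of a general transcription factor subunit, had group means of 0.143 and 0.412 CPM in wild-type normoxia and hypoxia and 0.101 and 0.438 CPM in the ΔN-VEGF groups.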

How the data were processed

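RNA-seq was made from 12 samples of NIH3T3 cells. The authors trimmed the reads with Trim Galore and cutadapt 1.10, aligned them to GRCm38 with TopHat2 2.1.0 and Bowtie2 2.2.6, and deposited raw counts per gene made with HTSeq 0.6.1 over Ensembl genes. Whether counting used strand was not given in the sources used here, so reads of overlapping antisense genes cannot be told apart.

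The 8 genes and the lists were chosen with earlier results of these data known. Genes passing filterByExpr (14724) entered the quasi-likelihood test of edgeR 4.0.16 (R 4.3.3), scaled by TMM, with the 4 group means fitted in 1 model of the 12 samples. P-values were adjusted by Benjamini-Hochberg over every gene tested, and a call is an adjusted p below 0.05. TMM factors ran from 0.8251 to 1.206, lowest in ΔN-VEGF hypoxia. The prior count of log2 CPM was 2. Intervals and floors cover counting error only. The fit was tested on simulated counts. Named genes were the 8, up to 3 called genes per list and comparison with the largest log2 fold change, expressed Rhox genes, the 5 genes most like Rhox5 or Uhrf1, and called neighbours of Rhox5. A gene that this rule named is not reported here. Promoter sequences came from RefSeq (GRCm38.p6), where all 8 genes matched. Of 10 listed hypoxia genes 1, Ca9, was not analysed here.

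Sample numbers are shared between groups. After each group's mean was subtracted, samples of the same number correlated at 0.378, 0.498 and 0.355 between the normoxia groups, but samples 1 and 3 correlated alike across numbers (0.347 and 0.358). In the other comparisons not every pair was over 0.1 (-0.0176 to 0.109), so the numbers were taken to pair the samples in the normoxia line comparison only, and a replicate block elsewhere is an alternative. Alternatives were DESeq2 1.42.0, other scalings and filters, a fold threshold of 2, only the 6 samples compared, a replicate block, and samples left out.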

Additional observations from a re-analysis of the deposited data

Results flagged for a closer look

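By the edgeR test of the difference itself, 3.36% of all genes responded to hypoxia differently in the lines. Among the listed genes other than the 8 and the cell type markers these were Neil3 and Vegfa. Neil3, a DNA glycosylase gene, had a difference of -1.84 on the log2 scale (ΔN-VEGF minus wild type, adjusted p = 0.013), with group means of 5.4 and 6.17 CPM in wild-type and 6.17 and 1.97 CPM in ΔN-VEGF normoxia and hypoxia, and the difference was -1.94 without both normoxia samples numbered 2. Vegfa, the edited gene, had a difference of 1.57 (adjusted p = 0.028), or 1.81 without both. The part of proliferation in the Neil3 difference was not tested.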

How the results depend on the processing

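Counts of the 7 enzymes called by edgeR depended most on 1 library and on which samples set the spread. In wild-type hypoxia the 3 calls became 5 without both normoxia samples numbered 2 and 0 with the 6 samples compared alone, with or without a replicate block, and leaving out 1 sample at a time gave 1 to 4, the lowest without wild-type hypoxia replicate 3, where Tet2 alone was called. Between the lines in normoxia the 0 became 4 without wild-type normoxia replicate 2 (0 to 4 over single samples) and 4 without both number 2 samples. Between the lines in hypoxia the 2 became 0 with a fold of at least 2, 3 with total counts (Dnmt1 and Uhrf1 added, Dnmt3a lost), 4 with a replicate block over 12 samples (Dnmt1 and Uhrf1 added), 7 with the 6 samples alone, with or without the replicate block, and 7 without both number 2 samples, and single samples gave 2 to 6, the highest without wild-type normoxia replicate 2. The 0 differing responses became 1 with DESeq2, 1 with the replicate block, 7 without both number 2 samples, and 0 to 6 over single samples, the highest again without that replicate. The count of 6 in ΔN-VEGF hypoxia stayed within 1.5 times under all alternatives run, from 4 with a fold of at least 2 to 7, but with total counts Dnmt3a and Tet3 were no longer called and Dnmt3b was. Rhox5 in wild-type hypoxia was called at -0.36 with total counts, its fall of -0.45 in ΔN-VEGF hypoxia was below a fold of 2, and the difference of its responses was called at -0.37 without both number 2 samples and ran from -0.37 to -0.27 over single samples, called only without wild-type normoxia replicate 2. Without both number 2 samples Uhrf1 turned to 0.56 in wild-type hypoxia and Dnmt3b to 0.25 between the lines in normoxia. Over single samples these ran from -1.21 to 0.56 and from -0.44 to 0.17, Uhrf1 between the lines in normoxia from -0.07 to 1.71, the differing response of Dnmt3b from -0.56 to 0.06 and of Tet2 from -0.08 to 0.47, and Tet3 in wild-type hypoxia from -0.09 to 0.04. The replicate block changed no other call on the 8 genes over 12 samples than those named and Tet3's differing response. The causes were not tested. DESeq2 gave no p for Uhrf1 in any comparison. Levels of 2.41 to 6.59 CPM for Dnmt3b, and under 10 reads for most Rhox genes, limit what could be seen.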
